A study of Mus musculus with 23 samples.

Results

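The genes described here are 33 genes of fatty acid breakdown in the liver: 19 act in mitochondria, 11 in or on peroxisomes, 1 (*Acat1*) belongs to the ketogenic pathway and 2 (*Ucp2*, *Fgf1*) are neighbours of the pathway in lipid metabolism. They were found by name among the 37074 gene names on the array, and each was read from its non-control probe with the highest mean log2 median signal over all arrays. All 33 passed the filter on dim probes, which left 21056 genes (32087 probes), and all were well above background and below saturation on each of the 23 arrays. The measurement was 1-colour hybridization of whole-liver RNA of male C57Bl6/J mice to Agilent arrays. Pregnenolone carbonitrile (PCN), a ligand of the mouse pregnane X receptor (PXR), was given to WT mice (WT PCN, n = 5) and to mice lacking PXR (Pxr-/- PCN, n = 6) by daily intraperitoneal injection over 4 days, at 100 mg/kg with corn oil as the vehicle. WT CONT (n = 6) and Pxr-/- CONT (n = 6) mice received the oil alone, and livers of all groups were taken in the middle of the light phase, 6 hours after the last injection, from mice with free access to food (the labels say fed, and the study's text calls this time of day semi-fasted). WT mice were purchased at 6 weeks of age, whereas Pxr-/- mice, backcrossed to the same strain, came from a colony kept for years at the study's own facility, so that genotype and colony cannot be told apart. In bulk liver RNA, fewer cells of a type and less RNA per cell cannot be told apart either.

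Long-chain fatty acids are activated to acyl-CoA, enter mitochondria through the carnitine shuttle and are shortened in repeated rounds of dehydrogenation, hydration, oxidation and thiolysis, whose electrons pass through the electron transfer flavoprotein to the respiratory chain. Very long and branched chains are first shortened in peroxisomes, which hand their products over as carnitine esters. In the fasting liver the acetyl-CoA feeds ketone body synthesis, and many genes of these routes are known targets of the nuclear receptor PPARα, which binds DNA as a partner of RXR at paired AGGTCA half-sites.

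After PCN, 30 of the 33 genes had lower levels in WT mice, with a median log2 change of -0.345 against -0.0231 over all probes tested, and 24 did so with the authors' own normalized values. In the quantile-normalized values 23 of the 33 genes (69.7%) passed an adjusted p of 0.05 in limma with no fold minimum, all downwards, where 12.0% of all probes did so downwards. All but *Abcd2* were on average brighter than the median tested probe (7.54 to 8.08 per array), and a share among equally bright probes was not taken. Of 57 other tested genes of these pathways and their regulators, 28.1% passed downwards. A call also required a change of more than 1.5-fold, and 5 genes (15.2%) were called lower, against 2.13% of all probes: *Acaa1b*, *Crot*, *Cpt1a*, *Fgf1* and *Eci2*. None of the 33 was called higher, where 3.38% of probes were. Most shifts were small, and 18 of the 23 genes changed by less than 1.5-fold.

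In Pxr-/- mice the same dose gave a median log2 change of -0.088, with 26 genes below 0 and none called in limma, against 0.698% of probes called lower and 1.23% called higher. By unadjusted p under 0.05 in limma, 5 of the 33 differed, and the share of all probes was not counted for this rule. With the adjusted p alone *Etfdh* passed, in a direction in which 3.27% of probes did. Every array of WT PCN lay below every array of WT CONT for 14 of the 33 genes (42.4%, against 6.16% of all probes), and the same was seen between Pxr-/- PCN and Pxr-/- CONT for 1 gene (3.03%, against 1.46%). The difference between both PCN effects, tested gene by gene as the interaction in limma, was called for *Cpt1a* alone (0.206% of probes were called in this direction), and *Acadm* passed the adjusted p without the fold minimum, where 0.446% of probes did so. For the other 31 genes a difference between genotypes was not shown gene by gene. The interaction was below 0 for 31 of the 33 genes (52.7% of all probes), with a median of -0.26 against -0.0135 over all probes. With the authors' values 22 genes were below 0 and these medians were -0.0701 and 0.0753. All 8 hepatocyte markers also lay below 0 in the interaction, with a median of -0.348, and their part in these values was not tested.

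**Figure D1:**
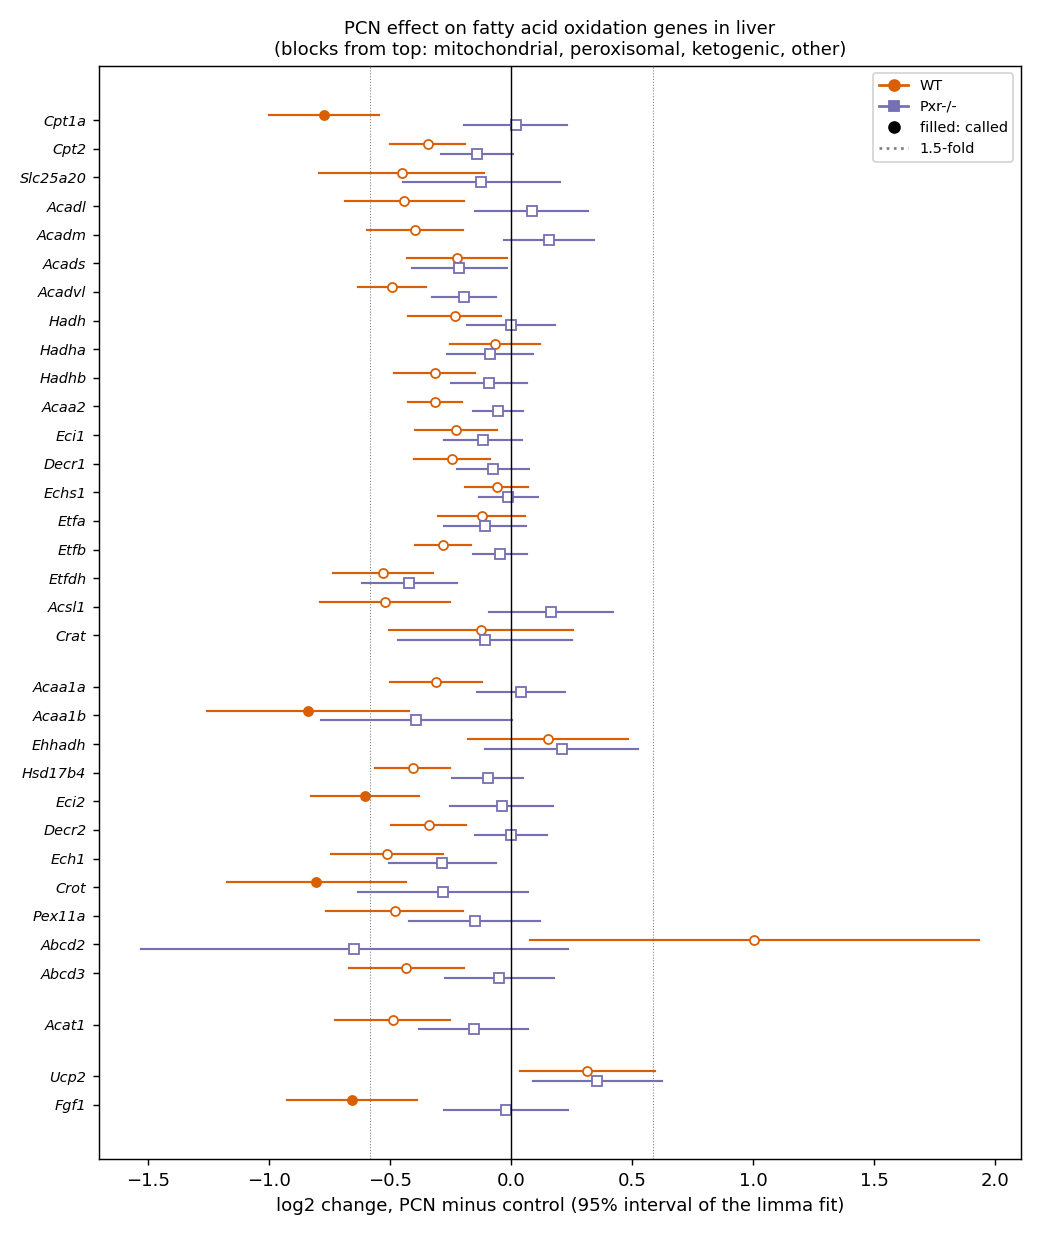
Log2 change after PCN for each of the 33 genes (vertical axis) in WT mice (circles) and Pxr-/- mice (squares), with the 95% interval of the limma fit on the horizontal axis; filled symbols are called changes and dotted lines mark 1.5-fold. The WT symbols lie left of 0 for 30 genes and 5 of them are filled, while no Pxr-/- symbol is filled.

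The promoter windows of the genes called lower in WT mice are shown as the sequence context of the members called in that comparison. They are the 250 bases before the start site, 5′ to 3′ on the gene's strand, from RefSeq on build GRCm38.p6, for *Cpt1a* (chr19:3323051-3323300, plus strand), *Acaa1b* (chr9:119157094-119157343, minus strand), *Eci2* (chr13:34994145-34994394, minus strand) and *Crot* (chr5:8997147-8997396, minus strand); a window of *Fgf1* was not used here. Capitals mark an exact match to the half-site AGGTCA on either strand.
Cpt1a: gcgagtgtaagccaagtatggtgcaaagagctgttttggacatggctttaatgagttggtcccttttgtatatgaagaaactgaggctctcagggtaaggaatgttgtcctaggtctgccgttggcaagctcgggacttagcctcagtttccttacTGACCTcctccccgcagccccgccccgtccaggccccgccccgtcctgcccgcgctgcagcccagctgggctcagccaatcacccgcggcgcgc
Acaa1b: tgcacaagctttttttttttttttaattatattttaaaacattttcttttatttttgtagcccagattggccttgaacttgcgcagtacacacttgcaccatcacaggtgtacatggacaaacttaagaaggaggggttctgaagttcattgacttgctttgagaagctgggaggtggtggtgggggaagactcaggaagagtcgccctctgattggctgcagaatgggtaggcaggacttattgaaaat
Eci2: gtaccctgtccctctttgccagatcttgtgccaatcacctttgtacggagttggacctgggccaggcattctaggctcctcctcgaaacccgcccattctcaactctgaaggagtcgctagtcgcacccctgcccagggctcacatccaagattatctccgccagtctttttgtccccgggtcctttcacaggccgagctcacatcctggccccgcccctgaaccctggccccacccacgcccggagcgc
Crot: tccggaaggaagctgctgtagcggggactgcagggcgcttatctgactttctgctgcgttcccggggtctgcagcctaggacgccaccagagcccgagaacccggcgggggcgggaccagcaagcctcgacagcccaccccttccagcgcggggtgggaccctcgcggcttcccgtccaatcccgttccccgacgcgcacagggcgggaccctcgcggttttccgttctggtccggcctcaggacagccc
The half-site was found once, in the *Cpt1a* window, on the opposite strand and starting 94 bases before the start site. RefSeq windows were matched for 26 of the 33 genes (28 windows), of which 4 windows (14.3%) held the half-site, beside 14.0% of all 32851 mouse windows. Direct repeats of it were also searched on both strands, with up to 2 mismatches in the 12 letters of both copies, a search that overlaps the one for single half-sites. Copies of AGGTCA with 1 base between them, the spacing of PPARα with RXR, matched in 2 member windows (7.14%, against 3.24% of all), those of *Echs1* and *Etfa*, and copies with 4 bases between them, a spacing used by PXR and related receptors, matched in 1 (3.57%, against 2.57%), that of *Acadvl*. After PCN in WT mice *Echs1* and *Etfa* did not pass in limma (log2 changes of -0.06 and -0.12), while *Acadvl* passed (-0.49). The 4 half-site windows were those of *Cpt1a* (-0.77), *Acadm* (-0.40), *Acadvl* and *Echs1*. A relation of matches to changes was not tested. A match of letters is not a bound site, and the windows cover only the bases next to the start.

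In the carnitine shuttle and fatty acid activation, *Cpt1a* was the gene called. It encodes carnitine palmitoyltransferase 1A, the regulated step of fatty acid entry into mitochondria (probe at chr19:3385374-3385433, mm9). Its normalized log2 intensity was lowest at 14.29, 14.49 in the median and highest at 14.83 in WT CONT, and was 13.81, 13.81, 13.75, 13.62 and 13.69 in the 5 WT PCN mice. All treated WT livers lay below all other arrays, since Pxr-/- CONT mice ranged from 14.03 to 14.61 (median 14.40) and Pxr-/- PCN mice from 14.18 to 14.66 (median 14.32). The log2 change was -0.77 ± 0.109 (SE; 1.71-fold lower, adjusted p = 4.11e-05) in WT and 0.02 ± 0.103 (adjusted p = 0.945) in Pxr-/- mice. The interaction was -0.79 ± 0.15 (95% interval -1.10 to -0.48, adjusted p = 0.0052 in limma). Within each of the 2 washing batches of the arrays it was -0.78 and -0.80, with adjusted p of 0.129 and 0.188 in these smaller fits.

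*Acsl1*, the long-chain acyl-CoA synthetase of the liver, had values of 14.53, 14.31, 14.65, 14.31 and 14.85 in WT PCN against 14.68 to 15.25 (median 15.15) in WT CONT. The groups overlapped, and the log2 change was -0.52 ± 0.13 (adjusted p = 0.00576). The Pxr-/- change was 0.17 ± 0.123, and the interaction of -0.69 ± 0.179 had an adjusted p of 0.0587. A second probe of *Acsl1* gave -0.49 in WT mice (adjusted p = 0.00834) and another -0.24 (adjusted p = 0.443). *Cpt2*, the inner-membrane carnitine palmitoyltransferase, changed by -0.35 ± 0.0756 in WT mice (adjusted p = 0.00223), but its second probe gave -0.04 (adjusted p = 0.898). The carnitine-acylcarnitine carrier *Slc25a20* gave -0.45 ± 0.164, which missed the threshold (adjusted p = 0.0503), and replicate 2 was the lowest array of both control groups. *Crat*, carnitine acetyltransferase, gave -0.12 with a 95% interval of -0.50 to 0.25.

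Among the acyl-CoA dehydrogenases, the very long, long and medium chain enzymes fell in WT mice by the adjusted p and the short chain enzyme did not pass. *Acadvl* lay between 15.53 and 15.76 in WT CONT (median 15.63) and at 15.19, 15.17, 15.15, 14.94 and 15.24 in WT PCN. These groups did not overlap, and the log2 change of -0.49 ± 0.0677 had an adjusted p of 3.2e-05, the lowest among the 33 genes, at a size below the fold minimum (1.41-fold). The Pxr-/- change was -0.19 ± 0.0644 (adjusted p = 0.0731). *Acadm* lay between 14.77 and 15.20 in WT CONT (median 14.84), and its WT PCN values of 14.59, 14.49, 14.36, 14.46 and 14.50 were all lower. Its Pxr-/- control and PCN groups, at 14.30 to 14.73 and 14.46 to 14.94, overlapped. The changes were -0.40 ± 0.0949 in WT (adjusted p = 0.00439) and 0.16 ± 0.0903 in Pxr-/- mice (adjusted p = 0.328), with an interaction of -0.55 ± 0.131 (adjusted p = 0.032). With the authors' normalized values the interaction of *Acadm* was -0.33 (adjusted p = 0.34), and with median centring it was -0.42 (adjusted p = 0.124). *Acadl* fell by 0.44 in WT mice (adjusted p = 0.00953), again without overlap, and *Acads* gave -0.22 (adjusted p = 0.112).

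The electrons of these dehydrogenases pass to *Etfa* and *Etfb*, the subunits of the electron transfer flavoprotein, and to *Etfdh*, its ubiquinone oxidoreductase. *Etfdh* was the only one of the 33 genes that fell in both genotypes by the adjusted p. In WT CONT it ranged from 13.53 to 13.84 (median 13.65), and WT PCN values were 13.49, 13.02, 12.93, 12.98 and 13.31. In Pxr-/- mice it ranged from 13.28 to 13.66 (median 13.55) in controls and from 12.91 to 13.19 (median 13.13) after PCN. In neither genotype did the groups overlap. The changes were -0.53 ± 0.0993 (adjusted p = 0.00062) in WT and -0.42 ± 0.0944 (adjusted p = 0.0108) in Pxr-/- mice, and the interaction was -0.11 (95% interval -0.39 to 0.17, adjusted p = 0.772). Its second probe gave -0.40 in WT mice (adjusted p = 0.0153) and -0.30 in Pxr-/- mice, where it did not pass (adjusted p = 0.102). *Etfb* fell by 0.28 in WT (adjusted p = 0.00109), with -0.32 on a second probe, while *Etfa* gave -0.12 (95% interval -0.30 to 0.06) and its other probes 0.19 and -0.08.

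The later steps of the mitochondrial spiral changed unevenly. *Hadha* and *Hadhb* encode the subunits of the trifunctional protein and lie head to head, with 273 bases between their annotated start sites. *Hadha* gave -0.07 in WT mice (95% interval -0.25 to 0.12, adjusted p = 0.641). *Hadhb* gave -0.32 ± 0.0802 (adjusted p = 0.00671) on the probe used, with WT PCN values of 13.75, 13.63, 13.62, 13.85 and 13.67 below the WT CONT range of 13.92 to 14.25 (median 13.99). Its other probes gave 0.04 (adjusted p = 0.92) and -0.000574 (adjusted p = 0.998), so the change of *Hadhb* rests on 1 of 3 probes. *Acaa2*, the mitochondrial thiolase, lay within 17.02 to 17.09 in WT CONT (median 17.07) and at 16.80, 16.81, 16.73, 16.63 and 16.74 in WT PCN. This was a small shift without overlap (-0.31 ± 0.0532, adjusted p = 0.000258). *Hadh*, the short-chain hydroxyacyl-CoA dehydrogenase, gave -0.23 (adjusted p = 0.0718), and *Echs1*, the short-chain hydratase, gave -0.06 (95% interval -0.19 to 0.07). Of the auxiliary enzymes for unsaturated chains, *Decr1* fell by 0.24 (adjusted p = 0.0243) and *Eci1* by 0.23 (adjusted p = 0.0498). In all, 19 of 19 mitochondrial genes were below 0 in WT mice on the probes used, where 54.3% of all probes were. Another probe of each of *Echs1*, *Crat*, *Etfa* and *Hadhb* lay above 0, and the remaining other probes of these genes lay below it. With the authors' values 24 of all 33 genes were below 0. The median of the 19 genes was -0.314, 12 passed the adjusted p (63.2%, against 12.0% of probes lower) and 1 was called (5.26%, against 2.13%).

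**Figure D2:**
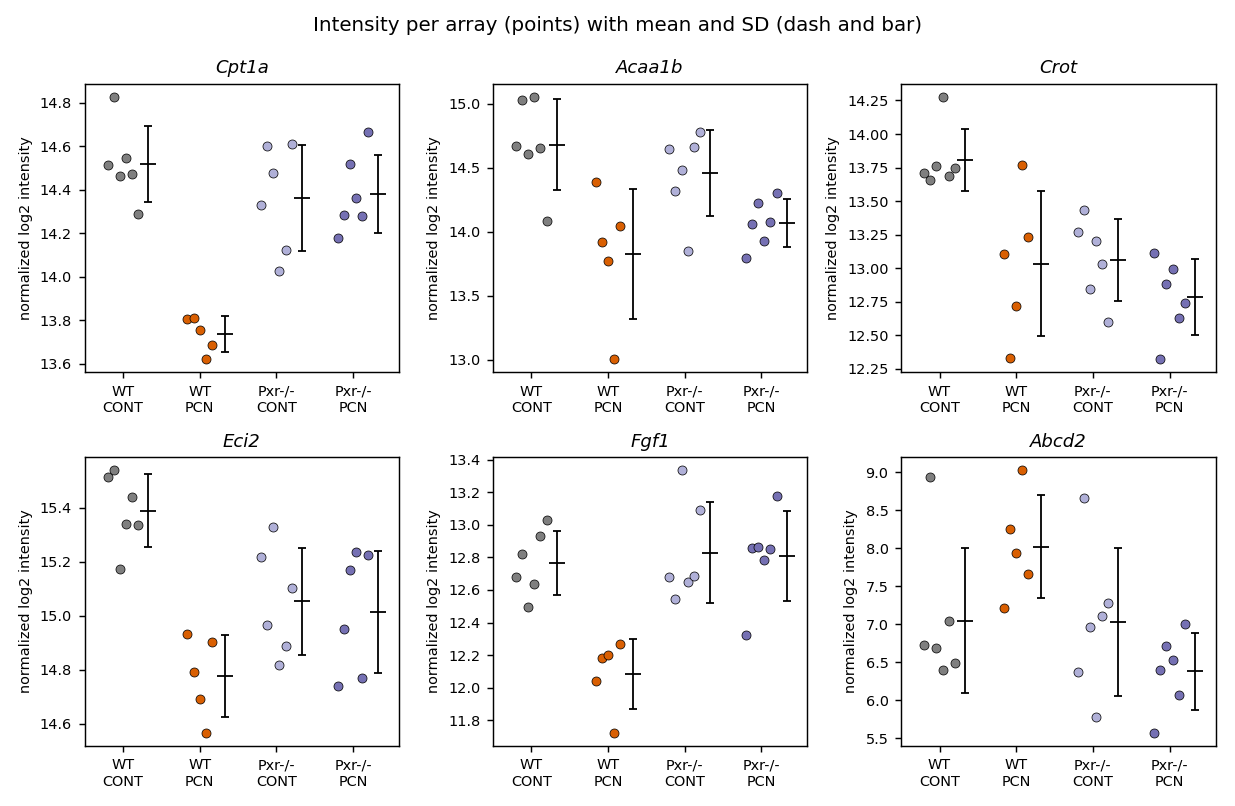
Normalized log2 intensity (vertical axes, one scale per panel) of the 5 genes called lower after PCN in WT mice and of *Abcd2*, for each array of the 4 groups (points), with group mean and SD (dash and bar). The WT PCN points of *Cpt1a* (13.62 to 13.81), *Eci2* and *Fgf1* lie below all WT CONT points, while those of *Acaa1b*, *Crot* and *Abcd2* (7.22 to 9.02) overlap them.

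Of the 11 peroxisomal genes, 9 fell in WT mice by the adjusted p (81.8%, against 12.0% of all probes) and 3 were called lower (27.3%, against 2.13%). Their median log2 change was -0.433, against -0.0231 over all probes. *Acaa1b*, a peroxisomal thiolase (probe at chr9:119057326-119057385, mm9), had WT CONT values between 14.09 and 15.06 (median 14.66) and WT PCN values of 14.39, 13.92, 13.77, 13.01 and 14.05. The groups overlapped through WT CONT replicate 6 and WT PCN replicate 1. The log2 change was -0.84 ± 0.201 (1.79-fold lower, adjusted p = 0.00436), and it was -0.39 ± 0.191 in Pxr-/- mice (adjusted p = 0.239), where controls ranged from 13.85 to 14.78 and treated mice from 13.80 to 14.31. In the washing batches alone the WT change was -0.83 and -0.88, and neither passed (adjusted p = 0.0934 and 0.0733). The interaction was -0.45 with a 95% interval of -1.02 to 0.13. Its close paralog *Acaa1a* fell by 0.31 in WT mice (adjusted p = 0.0173), with -0.20 on a second probe (adjusted p = 0.425), and hybridization of each probe to the other paralog's transcript was not tested.

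*Crot*, carnitine octanoyltransferase, which prepares shortened peroxisomal chains for export (probe at chr5:8966430-8966489, mm9), was between 13.66 and 14.28 in WT CONT (median 13.73) and at 13.11, 12.33, 12.72, 13.77 and 13.23 in WT PCN. Replicate 4 of WT PCN lay within the control range and the other 4 below it. The log2 change of -0.80 ± 0.178 (1.75-fold lower, adjusted p = 0.00241) was -1.37 in washing batch 2 (adjusted p = 0.0137) and -0.35 in batch 1 (adjusted p = 0.2). A second *Crot* probe gave -0.11 (adjusted p = 0.874). Without PCN, all 6 Pxr-/- CONT arrays (12.60 to 13.44, median 13.12) lay below all WT CONT arrays, a difference of -0.74 ± 0.169 that missed the threshold (adjusted p = 0.0533). This difference was called without WT PCN replicate 2 or 4, Pxr-/- CONT replicate 2 or Pxr-/- PCN replicate 4 (-0.789 to -0.743, adjusted p of 0.0208 to 0.0484), and was -0.61 without WT CONT replicate 4, the highest array of its group. Over all arrays left out in turn it ran from -0.80 to -0.61, with adjusted p up to 0.147. After PCN, Pxr-/- mice ranged from 12.32 to 13.11 (median 12.81), a change of -0.28 (adjusted p = 0.353), and the interaction was -0.52 (95% interval -1.03 to -0.01, adjusted p = 0.334).

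*Eci2*, the peroxisomal enoyl-CoA isomerase (probe at chr13:35069638-35069697, mm9), ranged from 15.17 to 15.54 (median 15.39) in WT CONT and was 14.93, 14.79, 14.69, 14.57 and 14.90 in WT PCN, with no overlap. The log2 change was -0.60 ± 0.108 (1.52-fold lower, adjusted p = 0.000423), just past the fold minimum. Leaving out WT CONT replicate 1, 2 or 5 or WT PCN replicate 3 or 4 brought it to between -0.582 and -0.559, below that minimum, at an adjusted p of 0.00114 to 0.00193. Its second probe gave -0.42 (adjusted p = 0.0224). The change was -0.04 ± 0.103 in Pxr-/- mice, and the interaction of -0.56 ± 0.149 had an adjusted p of 0.0637.

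The other enzymes for unsaturated chains were lower too: *Ech1*, a dienoyl-CoA isomerase, fell by 0.51 (adjusted p = 0.00222) and *Decr2*, the peroxisomal dienoyl-CoA reductase, by 0.34 (adjusted p = 0.00225), both without overlap in WT mice. *Hsd17b4*, the D-bifunctional protein, fell by 0.41 (adjusted p = 0.000553), also without overlap. *Ehhadh*, the L-bifunctional protein, did not pass: its WT CONT values ranged from 11.12 to 12.21 (median 11.52) and its WT PCN values were 11.89, 11.85, 11.63, 11.70 and 11.53, a change of 0.15 (95% interval -0.18 to 0.48, adjusted p = 0.54). *Pex11a*, which takes part in peroxisome division, fell by 0.48 (adjusted p = 0.014), and *Abcd3*, a transporter of the peroxisomal membrane, by 0.43 (adjusted p = 0.00878).

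*Abcd2*, a peroxisomal transporter of very long chain acyl-CoA, was 7.22, 8.25, 7.94, 9.02 and 7.67 in WT PCN against 6.40 to 8.94 (median 6.71) in WT CONT, where replicate 2 was the highest array and the other 5 were at most 7.04. In Pxr-/- mice it was 5.78 to 8.67 (median 7.04) in controls, again with replicate 2 highest, and 5.58 to 7.0 (median 6.46) after PCN. Control and treated groups overlapped in both genotypes. The WT change of 1.01 ± 0.447 missed the threshold (adjusted p = 0.11) with all arrays. It was called higher without WT CONT replicate 2 (1.35, adjusted p = 0.018) and without Pxr-/- CONT replicate 2 (1.03, adjusted p = 0.0476). The Pxr-/- change was -0.65 (adjusted p = 0.402) and the interaction 1.65 ± 0.617 (adjusted p = 0.205).

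In the ketogenic branch, *Acat1*, the mitochondrial acetoacetyl-CoA thiolase, ranged from 12.69 to 12.89 (median 12.76) in WT CONT and was 12.61, 12.39, 12.27, 11.87 and 12.25 in WT PCN. The groups did not overlap, and the log2 change was -0.49 ± 0.114 (adjusted p = 0.00355), against -0.15 ± 0.108 in Pxr-/- mice (adjusted p = 0.439) and an interaction of -0.34 (adjusted p = 0.332). Of 9 further ketone body genes, 2 passed the adjusted p downwards in WT mice (22.2%, against 12.0% of all probes) and 2 upwards (22.2%, with no share of all probes given). Of these, 1 was called, upwards (11.1%, against 3.38% of probes). The median over the 9 genes was 0.0238, against -0.0231 over all probes. *Bdh1*, which converts acetoacetate to 3-hydroxybutyrate, fell by 0.53 in WT mice (adjusted p = 0.000813). The interaction ran from -0.259 to 0.842 over the 9 genes and none passed the adjusted p, so a difference between genotypes was not shown for them. *Slc16a6*, a transporter for ketone body export, rose by 1.1 in WT (adjusted p = 0.00138) and by 0.87 in Pxr-/- mice (adjusted p = 0.0187). The monocarboxylate carrier *Slc16a1* gave 0.50 in WT (adjusted p = 0.0232) and -0.34 in Pxr-/- mice (adjusted p = 0.178).

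*Fgf1* encodes a fibroblast growth factor with metabolic actions. Its WT CONT values ran from 12.50 to 13.03 (median 12.75) and its WT PCN values were 12.04, 12.18, 12.20, 11.72 and 12.27, all lower. It changed by -0.66 ± 0.129 in WT (1.58-fold lower, adjusted p = 0.000975) and by -0.02 ± 0.123 in Pxr-/- mice, with an interaction of -0.64 ± 0.179 (adjusted p = 0.081). In the washing batches alone the WT change was -0.69 and -0.64, with adjusted p of 0.026 and 0.0818. Other *Fgf1* probes gave -0.46 (adjusted p = 0.0164) and -0.22 (adjusted p = 0.209). *Ucp2*, a mitochondrial carrier of the uncoupling protein family, gave 0.32 ± 0.135 in WT (adjusted p = 0.0971) and 0.36 ± 0.128 in Pxr-/- mice (adjusted p = 0.0985).

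Array by array, the shift was shared by all treated WT mice. The median over the 33 genes of each gene's deviation from its WT CONT mean ranged from -0.0774 to 0.0852 in WT CONT and was -0.265, -0.281, -0.406, -0.459 and -0.319 in WT PCN. It ranged from -0.241 to -0.0265 in Pxr-/- CONT and from -0.341 to -0.119 in Pxr-/- PCN. WT PCN and WT CONT did not overlap, while the Pxr-/- groups overlapped each other. All 6 Pxr-/- PCN arrays also lay below all WT CONT arrays and overlapped the WT PCN range, and Pxr-/- CONT overlapped the WT CONT range. Over the peroxisomal genes alone, WT PCN ran from -0.701 to -0.284. Since the zero of this measure is the WT CONT mean, values near 0 in that group are fixed by construction.

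**Figure D3:**
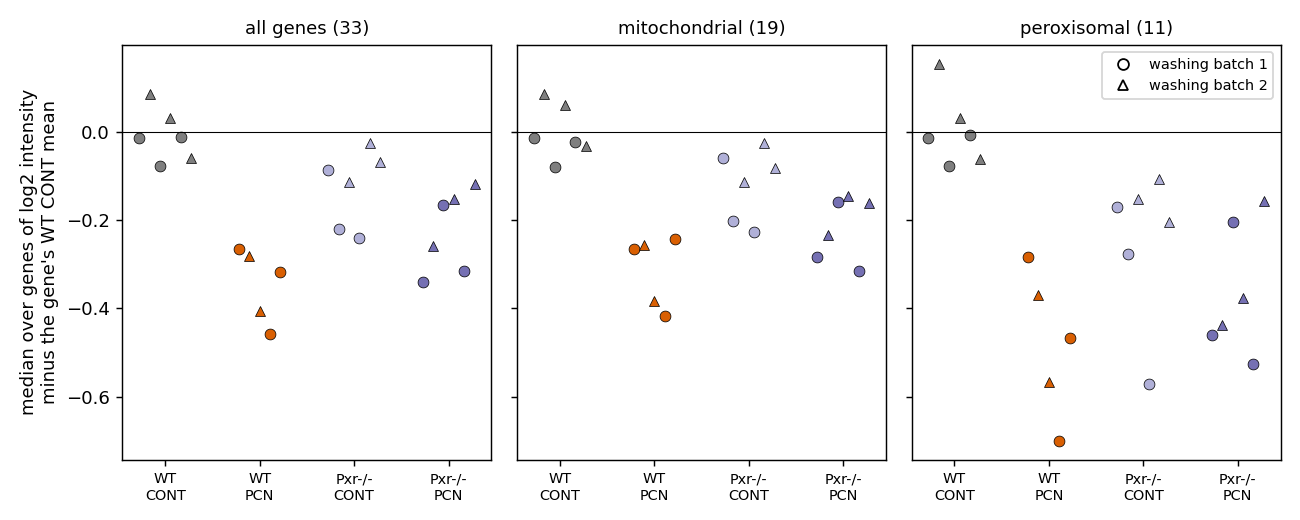
Median over all 33 genes, the 19 mitochondrial and the 11 peroxisomal genes of log2 intensity minus the gene's WT CONT mean (vertical axis), for each array of the 4 groups; circles and triangles mark washing batches 1 and 2. The 5 WT PCN arrays lie below all WT CONT arrays in each panel (-0.459 to -0.265 over all 33), in both batches.

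Without PCN, Pxr-/- livers had lower levels than WT livers for 26 of the 33 genes, with a median difference of -0.156 against -0.00609 over all probes (-0.24 against -0.106 with the authors' values), and none was called in limma (0.0623% of probes were called lower). None passed the adjusted p alone, which 0.128% of probes did downwards. By unadjusted p under 0.05, 11 differed, and the share of all probes was not counted for this rule. *Acadm*, *Hadhb* and *Crot* had all 6 Pxr-/- CONT arrays below all WT CONT arrays (3 of 33 genes, 9.09%, against 0.346% of all probes). The interaction and the comparisons of PCN with control use the same control arrays, so the values of a gene in them are not independent of each other.

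Between the PCN-treated groups, 25 of the 33 genes were higher in Pxr-/- than in WT mice, with a median of 0.125 against 0.0112 over all probes, but with the authors' normalized values this median was -0.136 against -0.178 over all probes. *Cpt1a* (0.64 ± 0.109, adjusted p = 0.000983) and *Fgf1* (0.70 ± 0.129, adjusted p = 0.00213) were called higher, where 0.636% of probes were. Both had all Pxr-/- PCN arrays above all WT PCN arrays, which held for 4 of the 33 genes (12.1%, against 2.86% of all probes). Of the 8 hepatocyte markers, 7 were above 0 here, with a median of 0.272, and their part in these values was not tested. With the authors' values *Cpt1a* and *Fgf1* stayed positive (0.35 and 0.44) but under the fold minimum. *Acadvl*, *Acaa2* and *Acat1* passed the adjusted p without the fold minimum (0.24, 0.19 and 0.38), so that 5 genes did (15.2%, against 3.56% of probes). *Abcd2* was called lower (-1.67 ± 0.447, adjusted p = 0.0248, with 1.15% of probes called lower). All its Pxr-/- PCN arrays lay below all WT PCN arrays, as for 3.20% of probes, and this call was lost without WT PCN replicate 2 or 4 or Pxr-/- PCN replicate 1 (-1.66 to -1.39, adjusted p of 0.0547 to 0.0805). The second probe of *Abcd2* gave -0.63 here and was not called (adjusted p = 0.0606).

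A list of 58 other genes of mitochondrial and peroxisomal oxidation, ketone bodies and their regulators gives the setting. In WT mice 57 were tested, 34 were below 0 and the median was -0.114, with 4 called lower (7.02%, against 2.13% of all probes) and 3 higher (5.26%, against 3.38%), while 54.3% of all probes were below 0. Among 11 regulators, *Ppara*, the gene of PPARα, fell by 1.05 in WT (adjusted p = 2.17e-07) and gave -0.18 in Pxr-/- mice (adjusted p = 0.265), with an interaction of -0.87 (adjusted p = 0.000882). *Ppargc1a*, a coactivator of oxidative genes, fell in both genotypes (-1.20 and -0.96, adjusted p = 9.88e-05 and 0.0031), and *Ppargc1b* fell in Pxr-/- mice (-1.07, adjusted p = 0.00255) and gave -0.53 in WT mice (adjusted p = 0.0566). *Fgf21*, a hepatokine, fell by 2.17 in WT mice (adjusted p = 0.00111), and *Pdk4*, a kinase that restrains pyruvate dehydrogenase, rose there by 1.00 (adjusted p = 0.0026). Of the 11 regulators only *Ppara* passed the adjusted p in the interaction (9.09%, against 0.446% of probes lower). A difference between genotypes was thus not shown for *Fgf21* or *Pdk4*. Outside the regulators, *Nudt7*, a peroxisomal CoA hydrolase, fell by 0.80 (adjusted p = 0.0108) and *Acacb*, which makes the malonyl-CoA that inhibits carnitine palmitoyltransferase 1, rose by 1.00 (adjusted p = 0.00781). *Acacb* was also higher in Pxr-/- CONT than in WT CONT (1.22, adjusted p = 0.0208), and *Slc22a5*, the carnitine importer, was lower there (-0.65, adjusted p = 0.00924).

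The size of the shift in the 33 genes depended on the scaling. With the authors' normalized values the median over all probes rose to 0.11 in WT mice and that over the 33 genes was -0.111, a distance of -0.221 between them, against -0.322 with quantile normalization. There 24 genes were below 0, 6 passed the adjusted p and 2 were called lower (*Acaa1b* and *Crot*). Of all probes, 3.92% passed downwards and 1.1% were called lower there, against 12.0% and 2.13% with quantile normalization. With the authors' values *Cpt1a* changed by -0.54 (adjusted p = 0.000387). Of all probes called in WT mice, 84.3% were higher with those values and 61.3% with quantile normalization. Between the treated groups these shares were 5.14% and 35.6%. The median raw log2 signal per array was 7.84 to 8.08 in WT PCN and 7.59 to 7.96 in WT CONT.

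**Figure D4:**
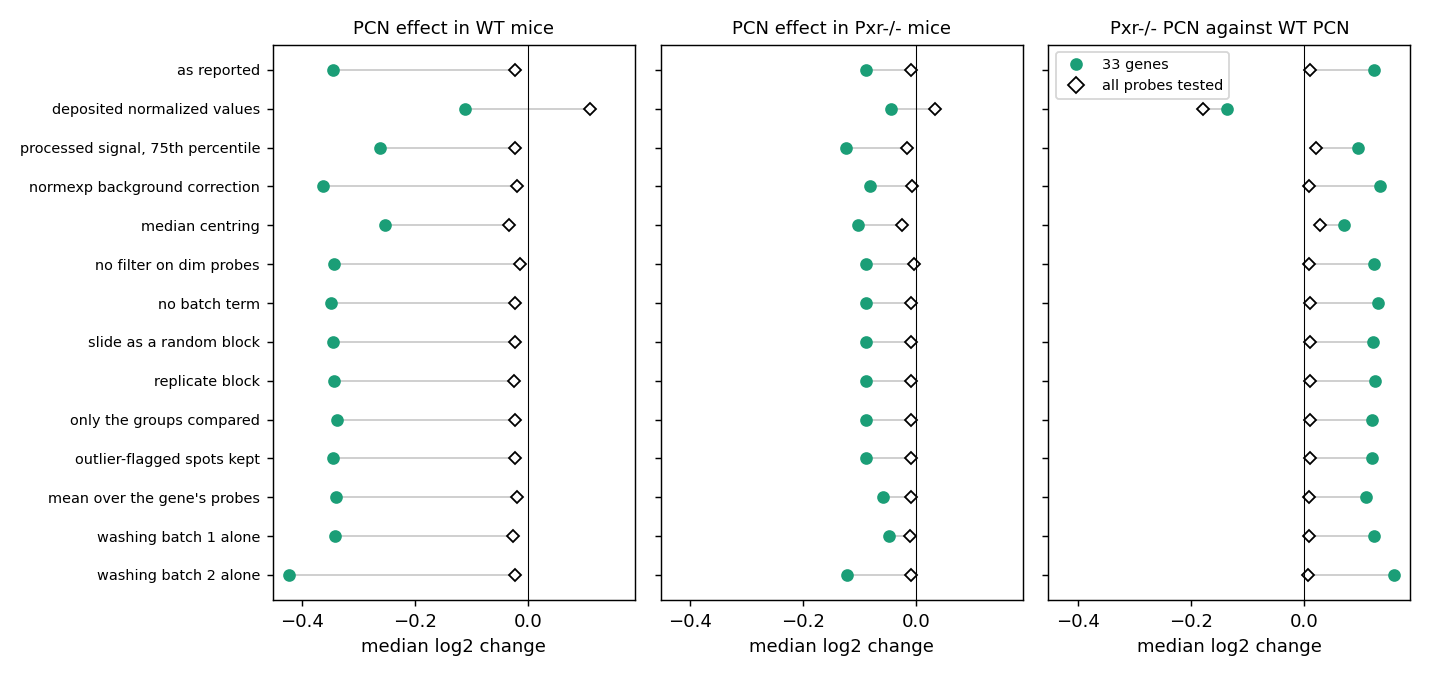
Median log2 change (horizontal axes) over the 33 genes (filled circles) and over all probes tested (open diamonds) under each way of processing the arrays (vertical axis), for PCN in WT mice, PCN in Pxr-/- mice and Pxr-/- PCN against WT PCN. In WT mice the 33 genes lie left of all probes in every setting shown (-0.423 to -0.111), whereas for Pxr-/- PCN against WT PCN the authors' values put both medians below 0.

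As a check of the labels, the PXR target *Cyp3a11* rose by 3.55 in WT mice and gave 0.31 in Pxr-/- mice (interaction adjusted p = 1.23e-06), whereas the probe of *Nr1i2*, the PXR gene, did not separate the genotypes (-0.03 between the control groups) and where it lies relative to the deleted part was not looked up. All 8 hepatocyte markers were well above background on all arrays, and their summed log2 level ranged from 19.46 to 19.82 in WT CONT and from 19.40 to 19.62 in WT PCN. It ranged from 19.58 to 19.71 in Pxr-/- CONT and from 19.58 to 19.77 in Pxr-/- PCN. Their changes had a median of -0.0795 in WT mice, where 1 passed the adjusted p downwards (12.5%, against 12.0% of probes). In the interaction 2 passed it downwards (25%, against 0.446% of probes). Cholangiocyte markers had a median change of 0.725 in WT mice, with summed levels of 10.49 to 12.20 in WT CONT and 11.68 to 12.96 in WT PCN (5 of 6 markers measured, *Cftr* below the filter). Of the 5, 1 was called higher (20%, against 3.38% of probes). Their median change was 0.624 in Pxr-/- mice and 0.0466 in the interaction. Of 7 stellate cell markers, 2 were called higher in each genotype (28.6%, against 3.38% of probes in WT and 1.23% in Pxr-/- mice). The ranges of the Kupffer cell, endothelial, stellate cell, lymphocyte, adipocyte and pancreas lists overlapped between WT CONT and WT PCN, and the part of any of these in the results was not tested.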

How the data were processed

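Liver RNA of 23 mice in 4 groups was hybridized to 1-colour Agilent arrays, scanned and read with Feature Extraction 10.10.1.1 per the labels. The deposited intensity files hold each spot's raw median signal and flags, with 62976 spots an array. The authors also deposited log2 values, filtered, corrected for the washing batch and normalized by CrossNorm (32574 probes, column medians 7.54 to 8.01); these were an alternative only.

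From the intensities, log2 median signals were taken, control spots and 2225 outlier-flagged spots were left out, and spots of a probe were averaged. Probes well above background on over 50% of the arrays of a group were kept (32087 of 56605) and quantile normalized. limma 3.58.1 in R 4.3.3 fitted group and washing batch over all 23 arrays (18 residual degrees of freedom), and p-values were adjusted by the Benjamini-Hochberg method over all probes. A call needed an adjusted p of at most 0.05 and a change over 1.5-fold. The number of arrays limits the precision, 29510 to 33321 probes an array were well above background, and no arrays were identical. Code was tested on simulated data.

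By rule all 33 genes may be named, and of the comparison lists those called in any of the 5 comparisons, ketone body genes and *Ppara*, beside *Nr1i2* and *Cyp3a11* as a check of the labels. The genes and lists were chosen with earlier results of these data known. Some genes of the comparison lists are not reported here by name but stay in the counts. Alternatives were the authors' values, 75th percentile scaling of the processed signal, normexp, median centring, no filter, no batch term, slide or replicate block, only the compared groups, flagged spots kept, the mean over a gene's probes, no fold minimum, single batches, and each array left out. The sixth WT PCN mouse was not analysed here. Promoter windows came from RefSeq (GRCm38.p6).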

Additional observations from a re-analysis of the deposited data

Results flagged for a closer look

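In 13 of 132 sets of a gene's values in a group, 1 array lay apart from the others by Dixon's ratio, over 12 genes; chance alone gives about 1 in 20. Replicate 2 of WT CONT stood apart for 4 genes, being lowest for *Slc25a20* (log2 intensity 9.712) and highest for *Acadm* (15.20), *Hadhb* (14.25) and *Abcd2* (8.936). Replicate 4 of WT CONT was highest for *Decr1* (15.61), *Hsd17b4* (15.00) and *Crot* (14.28), and replicate 4 of WT PCN was lowest for *Etfb* (15.81) and *Acaa1a* (15.17). In Pxr-/- mice the arrays that stood apart were CONT replicate 2 for *Slc25a20* (9.209), CONT replicate 5 for *Acaa2* (17.19), PCN replicate 5 for *Hadha* (10.17) and PCN replicate 6 for *Acsl1* (15.15).

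The effect of PCN on *Cpt1a* differed between WT and Pxr-/- mice by -0.792 on the log2 scale in limma's interaction test.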

How the results depend on the processing

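The median changes over the 33 genes kept their direction under all alternatives run, except that between the treated groups, which was 0.125 as reported and -0.136 with the authors' values. For PCN in WT mice (median -0.345) it was -0.111 with the authors' values, -0.262 with 75th percentile scaling and -0.254 with median centring. The mitochondrial median (-0.314) was -0.0948, -0.239 and -0.241 in these settings, -0.243 as the mean over probes and -0.25 in batch 1, and the peroxisomal one (-0.433) was -0.168 with the authors' values and -0.282 with percentile scaling. The 5 calls became 2 with the authors' values and with the mean over probes, 3 in batch 1 and 23 without a fold minimum. The 23 genes past the adjusted p alone became 6 with the authors' values, 15 with percentile scaling, and 6 and 7 in the single batches. Over all probes, the share past it downwards was 12.0% as reported and 3.92% with the authors' values. It was 11.7% with percentile scaling, 5.93% in batch 1 and 1.83% in batch 2. In Pxr-/- mice 1 gene was called without a fold minimum. In the interaction the 1 call became 2 with normexp and without a fold minimum and 0 in each batch. The interaction median of -0.26 became -0.0701 (authors' values), -0.152 (percentile) and -0.159 (median centring). Its mitochondrial median of -0.225 became -0.0462, -0.117 and -0.135, and the peroxisomal one of -0.34 became -0.131 and -0.178 in the first and second of these. Between the control groups the median of -0.156 became -0.24 with the authors' values, and 1 gene (*Crot*) was called with those values, normexp, median centring and the replicate block. Between the treated groups the 1 lower call became 0 in each batch. The 2 higher calls there became 0 with the authors' values and in each batch, 1 with percentile scaling, median centring or the mean over probes, and 5 without a fold minimum. The cause of these changes was not tested.

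With 1 array left out, calls in WT mice ranged from 4 to 7 lower and 0 to 1 higher, genes past the adjusted p alone from 20 to 24, and the medians from -0.39 to -0.332 (all), -0.317 to -0.284 (mitochondrial) and -0.529 to -0.367 (peroxisomal). In Pxr-/- mice 0 were called and the median ran from -0.101 to -0.0581. The interaction gave 1 to 3 calls and medians of -0.297 to -0.237, -0.249 to -0.181 and -0.387 to -0.26, the control groups 0 to 1 call and -0.178 to -0.118, and the treated groups 0 to 1 lower and 2 higher calls and 0.0829 to 0.159.

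Replicate numbers are shared by the groups. Deviations of same-numbered arrays correlated at r from -0.251 to 0.489 (median 0.067). Arrays with different numbers gave r from -0.371 to 0.391 (median -0.0213). With the replicate block, 5 genes were called in WT mice at a median of -0.344, and only the *Crot* call between the control groups was added. Of single genes, none that was called changed sign. Few arrays and 1 probe per gene limit these values.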
